A study of Mus musculus with 4 samples.

Results

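The cytosolic ribosomal protein genes are the genes for the proteins of the 2 subunits of the ribosome that translates nuclear-encoded mRNAs. They were chosen by symbol, as Rpl or Rps followed by a number with at most 1 letter (a, l, x or y) after it, together with Rplp0, Rplp1, Rplp2 and Rpsa. Rps27l, which this pattern also takes, was left out because the rule names it as outside. The rule found 80 genes among the 20325 gene symbols of the matrix, 31 of the small subunit and 49 of the large subunit, and it used no measured value. RNA was sequenced from mouse C3H10T1/2 cells, a multipotent mesenchymal line derived from C3H embryos, at passages 10 to 15 in medium with 10% serum. One group stably expressed FLAG-HA-tagged histone H3.3 carrying K36M, a lysine-to-methionine change at position 36 (K36M, 2 libraries), and the other stably expressed FLAG-HA-tagged wild type H3.3 (WT, 2 libraries). Both groups therefore carry a tagged transgene beside their own H3.3 genes, and the labels leave out whether each line was 1 clone or a pool. Nor do they state that the libraries of a group came from separate cultures. The p-values therefore reflect the spread between libraries, largely pooled over genes, and that spread may be technical.

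A ribosome holds 1 copy of nearly every one of these proteins, and the proteins are assembled onto ribosomal RNA in the nucleolus. Small subunit proteins shape the path of the mRNA and the site where codons are read, and large subunit proteins surround the centre that joins amino acids, the tunnel the new chain leaves through and the stalk that recruits translation factors. In mammals the mRNAs of these genes begin with a C followed by a run of pyrimidines, the 5′ terminal oligopyrimidine (TOP) motif, through which mTOR and LARP1 control their translation and stability.

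Stretches of pyrimidines near the annotated starts of members at both ends of the range of fold changes are shown, because such a stretch is the sequence feature the group is known for. For 60 of the 80 genes RefSeq (GRCm38.p6) gave 1 or more start windows. Each line below has the gene and 30 bases on the gene's strand, 5′ to 3′, and capitals mark the longest stretch of a C followed by at least 5 bases that are each C or T, searched from 20 bases before to 50 bases after the annotated start. The first 4 genes are among the 8 with the highest log2 fold changes in K36M cells and the last 4 among the 8 with the lowest.
Rps23: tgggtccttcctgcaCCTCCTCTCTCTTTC
Rpl23: gagtgggcggggCCTCCCgttcatatccca
Rpl26: cgtgtagttCTCTTTCCTTTTgcggccatc
Rpl38: gaagcctcgttCTTTCCCCgttctcttcgg
Rps21: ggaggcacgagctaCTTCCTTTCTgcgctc
Rps24: ttggtcggcagtgagcggtCCTCTTTTCCT
Rpl15: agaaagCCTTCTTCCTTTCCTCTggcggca
Rpl34: acccgCCCCTTCCTTTTCCTCTTCCgggga

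On GRCm38.p6 the 30 printed bases lie at chr13:90923142-90923171 (plus strand) for Rps23, chr11:97782404-97782433 (minus) for Rpl23, chr11:68901580-68901609 (plus) for Rpl26 and chr11:114668569-114668598 (plus) for Rpl38. The others lie at chr2:180257399-180257428 (plus) for Rps21, chr14:24490698-24490727 (plus) for Rps24, chr14:18270967-18270996 (minus) for Rpl15 and chr3:130730330-130730359 (minus) for Rpl34. Counting the annotated start as 1 and the base before it as -1, the capitals begin at 1 in Rpl38, 19 in Rpl23, 24 in Rpl26, 35 in Rps21, 36 in Rps23, 40 in Rps24, -4 in Rpl15 and -17 in Rpl34, so only that of Rpl38 begins at the annotated start itself. A stretch of this kind was found in 57 of 71 start windows of the ribosomal protein genes (80.3%) and in 44.7% of all 32851 windows. The latter were not limited to genes expressed in these cells. Only genes with such a stretch were printed, and genes on chromosome 18 were left out. Its presence at both ends of the range was therefore set by that choice. Among the printed genes Rpl26 and Rpl38 rose, and Rpl15 and Rpl34 did not pass the test. Over the tested genes with a window, the median log2 fold change was 0.38 for the 48 with a tract and 0.44 for the 8 without. Annotated starts can differ from the base at which these cells begin transcription, so a match is a description of the letters only.

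Nearly all ribosomal protein mRNAs rose by a modest amount in K36M cells, about 1.35-fold at the median. They drew 6.49% and 6.64% of all expected counts (RSEM's estimated read numbers) in K36M replicates 1 and 2, against 4.76% and 4.69% in WT replicates 1 and 2. The groups did not overlap, and the mean share was 6.57% ± 0.112 in K36M and 4.72% ± 0.0517 in WT (SD, n = 2 each), a ratio of 1.39. Of the 76 genes with enough counts to be tested with edgeR's quasi-likelihood test, 73 were called higher at a Benjamini-Hochberg adjusted p under 0.05, 0 were called lower and 3 were not called. Across all 13162 genes tested, 38.5% were called higher and 37.1% lower, so the share of ribosomal protein genes called higher stands above that background and the share called lower below it. Among the other 2175 genes with a mean of at least 100 CPM (the usual depth-scaled count unit, here from expected counts with TMM library sizes), 43.2% were called higher and 38.4% lower. Both K36M libraries lay above both WT libraries for 74 of the 76, which was also so for 44.0% of all tested genes. In bulk RNA, a change in the make-up of the culture and a change in RNA per cell cannot be told apart, and a CPM is a share of the RNA sequenced, not an amount per cell. Scaled by the factors behind the authors' own log2 table, 67 genes were called higher and 0 lower.

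**Figure D1:**
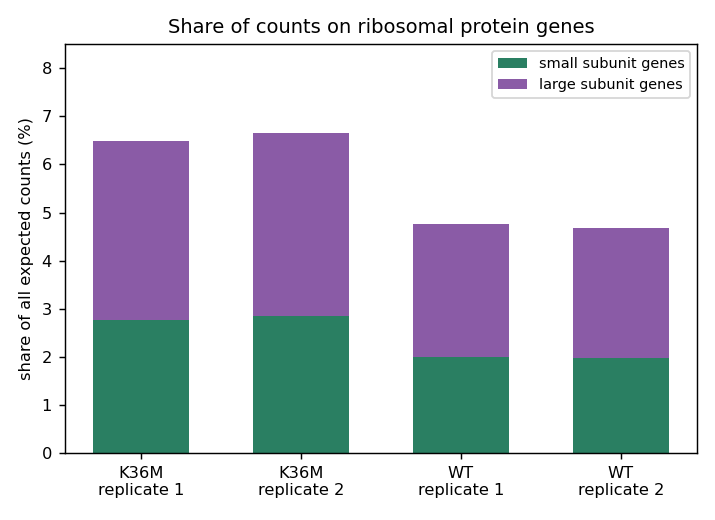
Stacked bars show the percent of all expected counts that fell on small subunit and large subunit genes in each library, K36M libraries on the left. Both K36M bars end above 6%, and both WT bars below 5%.

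The rise was spread over nearly all genes of the group and kept to a narrow range. The median log2 fold change was 0.43 over the 76 tested genes, with quartiles of 0.29 and 0.53, against 0.00 over all tested genes with quartiles of -0.35 and 0.41. The standard deviation of the log2 fold changes across genes was 0.183 for ribosomal protein genes, 1.602 for all tested genes and 0.877 for the other genes of at least 100 CPM, whose quartiles were -0.27 and 0.30. Only 12 of the 73 called genes reached 1.5-fold, and the highest, Rpl23a, reached 1.68-fold. None of the 80 was among the 594 genes of the authors' deposited table.

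**Figure D2:**
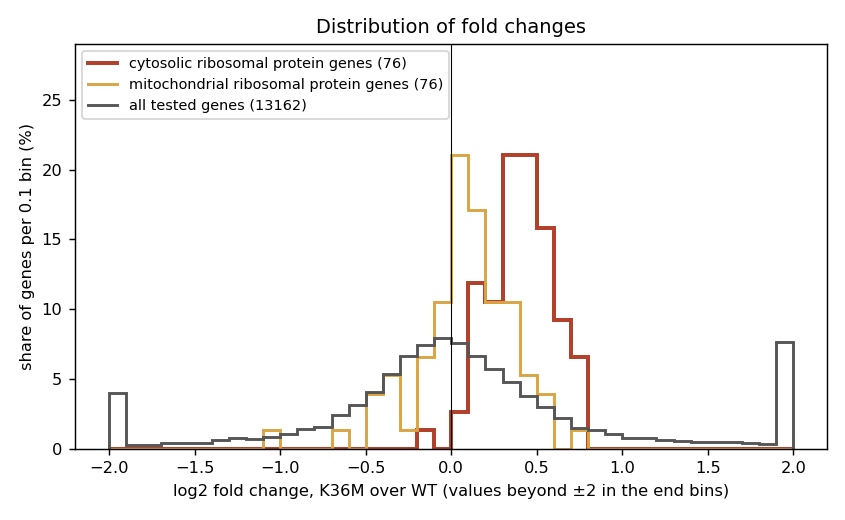
Lines give the percent of genes per 0.1-wide bin of the log2 fold change, K36M over WT, for 76 cytosolic ribosomal protein genes, 76 mitochondrial ribosomal protein genes and all 13162 tested genes, with values beyond 2 in either direction in the end bins. The cytosolic genes form a narrow peak right of 0, with a median of 0.43.

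The genes of both subunits rose, and by similar amounts. Of 30 tested small subunit genes 29 were called higher (median log2 fold change 0.44, from 0.08 to 0.73), and of 46 tested large subunit genes 44 were (median 0.41, from -0.11 to 0.75). Large subunit counts were 1.34 and 1.33 times the small subunit counts in the K36M libraries, against 1.37 and 1.36 times in the WT libraries. The 2 groups of ratios did not overlap but lay close together, and their difference was not tested.

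**Figure D3:**
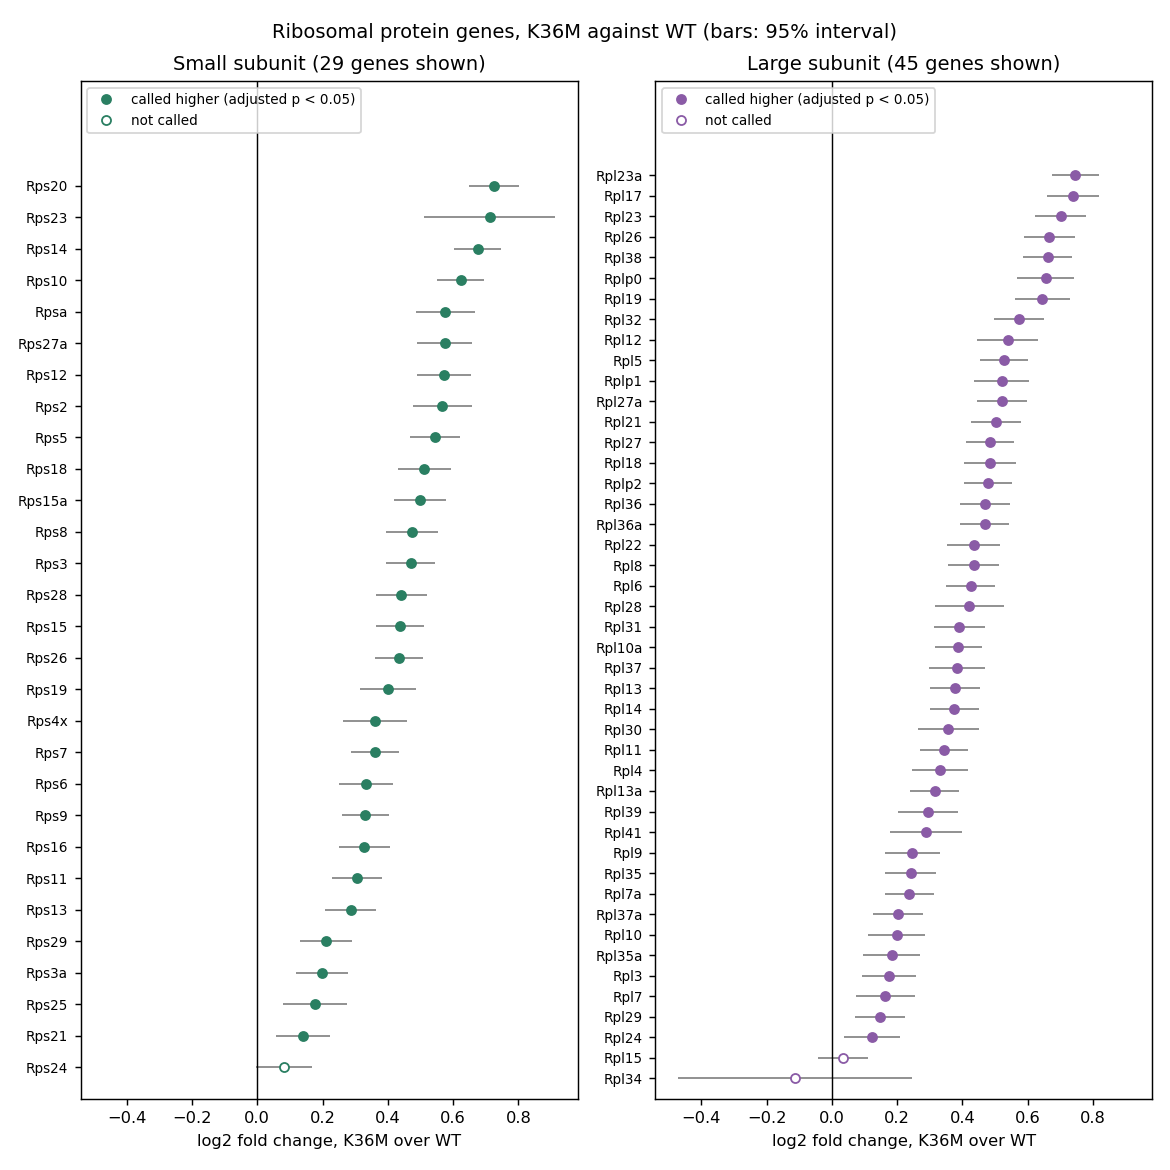
Points are log2 fold changes, K36M over WT, of the tested small subunit and large subunit genes except 2 that are not shown, with bars for the 95% interval of the edgeR fit. Filled points passed an adjusted p of 0.05, and the 3 open points, Rps24, Rpl15 and Rpl34, did not.

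In the small subunit the largest rise was that of Rps20, a protein of the subunit's head. Rps20 stood at 1055 and 1055 CPM in the K36M libraries, against 651 and 625 CPM in the WT libraries, 1.65-fold higher (adjusted p = 2.03e-12, edgeR). Rps14, whose human counterpart is lost in the 5q- syndrome of the bone marrow, stood at 924 and 929 CPM in K36M and at 587 and 573 CPM in WT, a log2 fold change of 0.67 (adjusted p = 2.78e-12). The pairs of libraries were far apart relative to the differences within each pair for both genes.

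Genes for the mRNA path of the small subunit rose, 6 of 6, as did 29 of all 30 tested small subunit genes. The median log2 fold change was 0.46 in this list and 0.44 in the subunit. Rps2, at the mRNA entry, drew the most counts of all ribosomal protein genes, with 3034 and 2911 CPM in K36M and 1997 and 2019 CPM in WT (1.48-fold, adjusted p = 9.27e-10, edgeR). Rps3, which lines the same entry, averaged 1117 ± 13.1 CPM in K36M and 807 ± 3.37 CPM in WT (SD, n = 2 each). Rps15, near the decoding site, averaged 687 ± 7.81 CPM in K36M and 508 ± 9.28 CPM in WT. At the mRNA exit, Rps26 rose 1.35-fold and Rps28 1.36-fold. Rps23, which reaches into the decoding centre, stood at only 28.0 and 22.7 CPM in K36M and 14.4 and 16.9 CPM in WT. It was called 1.64-fold higher (adjusted p = 2.23e-06).

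Rpsa and Rps4x, among the 4 ribosomal protein genes with the highest mean CPM, were also called higher. Rpsa, also known as the laminin receptor, stood at 2023 and 2091 CPM in K36M and at 1416 and 1343 CPM in WT, 1.49-fold higher (adjusted p = 6.18e-10, edgeR). Rps4x, the X-linked S4 gene, averaged 1662 ± 109 CPM in K36M and 1294 ± 39.2 CPM in WT (SD, n = 2 each), 1.28-fold higher. Rps6, the substrate of S6 kinase, and Rps27a, made as a fusion with ubiquitin, were named after their values were seen. Rps6 rose 1.26-fold and Rps27a 1.49-fold.

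Genes of the P-stalk, which recruits the GTPase translation factors, all rose, like 44 of the 46 tested large subunit genes. Rplp0, the base of the stalk, stood at 2681 and 2632 CPM in K36M and at 1705 and 1669 CPM in WT, 1.57-fold higher (adjusted p = 6.70e-11, edgeR). Its acidic partners Rplp1 and Rplp2 rose 1.43-fold and 1.39-fold. The 3 stalk genes therefore differed in size of rise but not in direction.

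Around the polypeptide exit tunnel 9 of 9 genes rose, against 73 of all 76 tested ribosomal protein genes. The median log2 fold change was 0.43 in this list and 0.43 over the 76. The largest single rise of the group, that of Rpl23a, lay here. Rpl23a, at the rim of the tunnel, stood at 929 and 932 CPM in K36M and at 548 and 561 CPM in WT (log2 fold change 0.75, SE 0.0347, adjusted p = 6.21e-13, edgeR). Rpl17, which reaches into the tunnel, stood at 1062 and 999 CPM in K36M and at 617 and 619 CPM in WT (log2 fold change 0.74, SE 0.038, adjusted p = 2.92e-12). Rpl26 and Rpl19, both at the tunnel's rim, rose 1.59-fold and 1.56-fold. The others in this list rose less, with Rpl22 1.35-fold, Rpl31 1.31-fold, Rpl4 1.26-fold, Rpl39 1.23-fold and Rpl35 1.18-fold higher, so neighbours in the structure spanned most of the range.

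The genes of the 2 proteins that bind 5S ribosomal RNA and can hold back the p53 regulator MDM2 both rose. Of all 46 tested large subunit genes 44 rose. Rpl5 stood at 928 and 925 CPM in K36M and at 653 and 633 CPM in WT, 1.44-fold higher (adjusted p = 1.35e-10, edgeR). Rpl11 averaged 593 ± 9.68 CPM in K36M and 467 ± 7.06 CPM in WT (SD, n = 2 each), 1.27-fold higher. Of 10 genes picked as mutated in human Diamond-Blackfan anaemia or lost in 5q- syndrome, 9 rose and 1, Rps24, was not called. The list is a selection and not all such genes, and Rpl15 and Rpl34, the other genes not called, were not in it. Over all tested ribosomal protein genes, 73 of 76 were called higher. Rps19, the most often mutated of them in people, rose 1.32-fold, Rps10 1.54-fold, Rps7 1.28-fold and Rpl35a 1.14-fold.

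Rpl23 and Rpl38 completed the 8 largest rises. Rpl23, which lies at the interface with the small subunit, stood at 1218 and 1248 CPM in K36M and at 763 and 753 CPM in WT, 1.63-fold higher (adjusted p = 4.08e-12, edgeR). Rpl38, which in mouse embryos is needed for the translation of some Hox mRNAs, stood at 438 and 427 CPM in K36M and at 273 and 274 CPM in WT, 1.58-fold higher (adjusted p = 5.95e-12). In each gene all K36M values lay well above all WT values.

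At the low end, Rpl3, Rpl7, Rpl29, Rpl24 and the small subunit gene Rps21 rose only slightly. Rpl3, near the peptidyl transferase centre, averaged 1564 ± 31.8 CPM in K36M and 1386 ± 6.29 CPM in WT (SD, n = 2 each), 1.13-fold higher (adjusted p = 0.000605, edgeR). Rpl7 rose 1.12-fold, Rpl29 1.11-fold, Rps21 1.10-fold and Rpl24, part of a bridge between the subunits, 1.09-fold (adjusted p = 0.0113 for Rpl24, the highest among the 73 called). Under the authors' factors these 5 genes kept positive log2 fold changes, from 0.04 to 0.09, but did not pass the test. Without WT replicate 2 the log2 fold changes of Rpl24, Rpl29 and Rpl7 were smaller, at 0.09, 0.12 and 0.13, against 0.12, 0.15 and 0.16. That of Rpl24 was 0.07 without K36M replicate 2.

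Rpl15 and Rps24 were not called. Rpl15 stood at 699 and 669 CPM in K36M, against 679 and 658 CPM in WT, and the groups overlapped (log2 fold change 0.03, SE 0.0365, 95% interval -0.04 to 0.11, adjusted p = 0.414, edgeR). It was called under total counts (0.08, adjusted p = 0.0403), and its log2 fold change was 0.07 without K36M replicate 2. Rps24 stood at 827 and 904 CPM in K36M, against 822 and 814 CPM in WT, with no overlap but with K36M replicate 1 close to the WT values (log2 fold change 0.08, SE 0.0412, adjusted p = 0.0807). It was called under upper quartile scaling (0.12, adjusted p = 0.0132), under total counts (0.13, adjusted p = 0.00749) and at a mean of at least 5 CPM (0.10, adjusted p = 0.0321). Without K36M replicate 1 its log2 fold change was 0.15. Under the authors' factors both were slightly lower in K36M and not called.

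Rpl34 was the only tested gene with a negative value, and a row named as its pseudogene also drew reads. Rpl34 stood at 112 and 199 CPM in K36M and at 196 and 136 CPM in WT, and both WT values lay inside the K36M range (log2 fold change -0.11, SE 0.171, adjusted p = 0.560, edgeR). That other row, Rpl34-ps1, stood at 214 and 168 CPM in K36M and at 110 and 136 CPM in WT. The share of the 2 rows' counts that was assigned to Rpl34-ps1 was 65.6% and 45.8% in K36M and 35.9% and 49.9% in WT, so the split moved between libraries of 1 group. Whether reads of one gene were assigned to the other row was not tested. Summed, a choice made after seeing the data, the rows gave 326 and 367 CPM in K36M and 306 and 272 CPM in WT, with no overlap. The sum was called higher in K36M (log2 fold change 0.26, SE 0.0533, adjusted p = 0.000237). With Rpl34 alone, the direction followed the library left out. The log2 fold change was -0.57 without K36M replicate 2 and -0.35 without WT replicate 2. It was 0.26 without K36M replicate 1 and 0.17 without WT replicate 1. Each of these fits leaves a lone library in a group, so only the size is given.

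**Figure D4:**
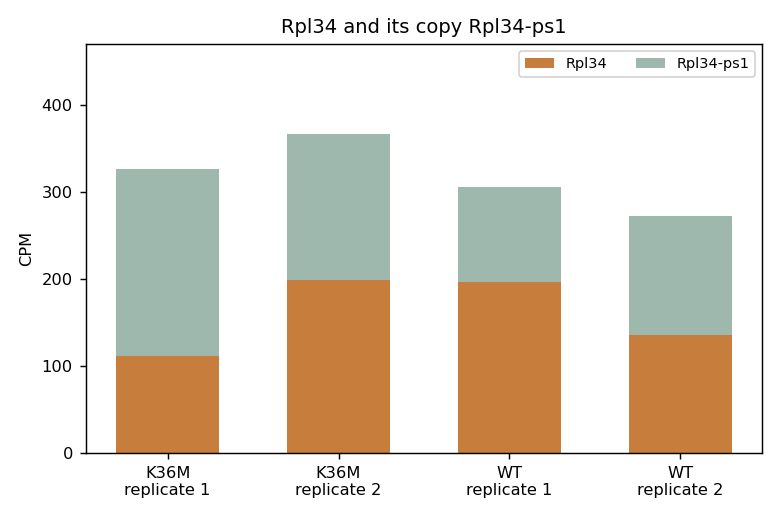
Stacked bars give the CPM assigned to Rpl34 and to Rpl34-ps1 in each library, K36M libraries on the left. The part on Rpl34 goes up and down within each group, and the summed height is 326 and 367 CPM in K36M and 306 and 272 CPM in WT.

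Reads shared with copies touch most of these genes. Expected counts were not whole, beyond a tolerance of 0.001, in all 4 libraries for 76 of the 80 (95%), against 32.2% of all genes in the matrix. The matrix includes rows with no counts, which are always whole, so the 2 shares are not at a like level of expression. The share among tested genes alone was not computed. RSEM gives a count that is not whole where it divides reads among similar transcripts, and ribosomal protein genes are known for many near-identical processed pseudogenes. How far such division moved single values was not tested, and it can add an error that the replicate spread does not show. The row of Rps23 above is one whose level is far below that of most members.

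The 4 genes that were not tested had almost no counts. Rpl10l, Rpl39l and Rpl3l are tissue-restricted relatives of Rpl10, Rpl39 and Rpl3, of testis in the first 2 cases and of muscle in the third. Rpl10l had 0 counts in all 4 libraries, Rpl39l had 1 count in each K36M library and 0 in each WT library, and Rpl3l had 6 and 1 in K36M and 0 and 1 in WT. A floor of 3 counts stands at 0.0528 and 0.0863 CPM in the K36M libraries and 0.121 and 0.130 CPM in the WT libraries, a limit of counting error only. Rps27, the gene of a protein of every ribosome, had 0.1 and 0.02 expected counts in K36M and 0 and 0.01 in WT. That row stands at or near 0 while most genes of the same particle drew far more reads, so it is listed at 0 here and says nothing of the gene's expression.

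Relatives outside the rule were more mixed. Fau, whose product is cut into a ribosomal protein and a ubiquitin-like protein, rose 1.24-fold (adjusted p = 1.96e-07, edgeR). Rps27l, a p53 target related to Rps27, averaged 116 ± 6.21 CPM in K36M and 82.7 ± 0.995 CPM in WT (SD, n = 2 each), 1.40-fold higher. Rpl22l1, a paralog of Rpl22, stood at 110 and 129 CPM in K36M and at 149 and 141 CPM in WT, 1.21-fold lower (adjusted p = 0.000283). Rpl7l1 stood at 113 and 117 CPM in K36M and at 116 and 114 CPM in WT and was not called (log2 fold change -0.01, adjusted p = 0.862). Rpl36al stood at 165 and 178 CPM in K36M and at 166 and 161 CPM in WT and was not called either (0.07, adjusted p = 0.170). In this list of 8 symbols 7 were in the matrix and tested, and 4 rose, the row of Rpl34-ps1 above among them, and 1 fell (median 0.31). These are 57.1% and 14.3%, against 38.5% and 37.1% of all tested genes.

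The size of the rise had no clear relation to coding length or to level. Across the 76 tested genes, Spearman's rho between the log2 fold change and the coding length was 0.02, and with mean CPM it was 0.12; these are across genes of the same 4 libraries and carry no p. Of the 76, 69 have a coding length in the shortest quartile of tested genes (up to 870 bases in GENCODE M21), where the other 3180 genes had a median log2 fold change of -0.01 and 36.1% were called higher. The median of these other short genes was close to that of all tested genes, 0.00.

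The size of the rise differed by chromosome, a pattern noticed after the values were seen. Both genes on chromosome 14, Rpl15 and Rps24, were among the 3 not called, and the 2 on chromosome 16, Rpl24 and Rpl35a, had log2 fold changes of 0.12 and 0.18. The 7 on chromosome 11, which include Rpl23a, Rpl23, Rpl26, Rpl38 and Rpl19, lay between 0.48 and 0.75, and the 2 on chromosome 18, Rpl17 and Rps14, at 0.74 and 0.67. The other tested genes of the same chromosomes were ordered in a similar way. Their median log2 fold change was -0.30 on chromosome 14 (438 genes), -0.18 on chromosome 16 (403 genes), 0.15 on chromosome 18 (358 genes) and 0.26 on chromosome 11 (1062 genes). On chromosome 14, 21.9% of the other genes were called higher, and on chromosome 11 59.2%.

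Across the 76 genes on 19 chromosomes, Pearson's r between a gene's log2 fold change and the median of the other genes of its chromosome was 0.64 and Spearman's rho 0.53. This is a description: genes of 1 chromosome share the same median, and all values come from the same 4 libraries. Relative to that median, 75 of the 76 were higher, all but Rpl34, with a median difference of 0.39. The standard deviation across the 76 was 0.183 before and 0.141 after the chromosome medians were subtracted. The part of chromosome-wide differences in the values of single genes was not tested.

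**Figure D5:**
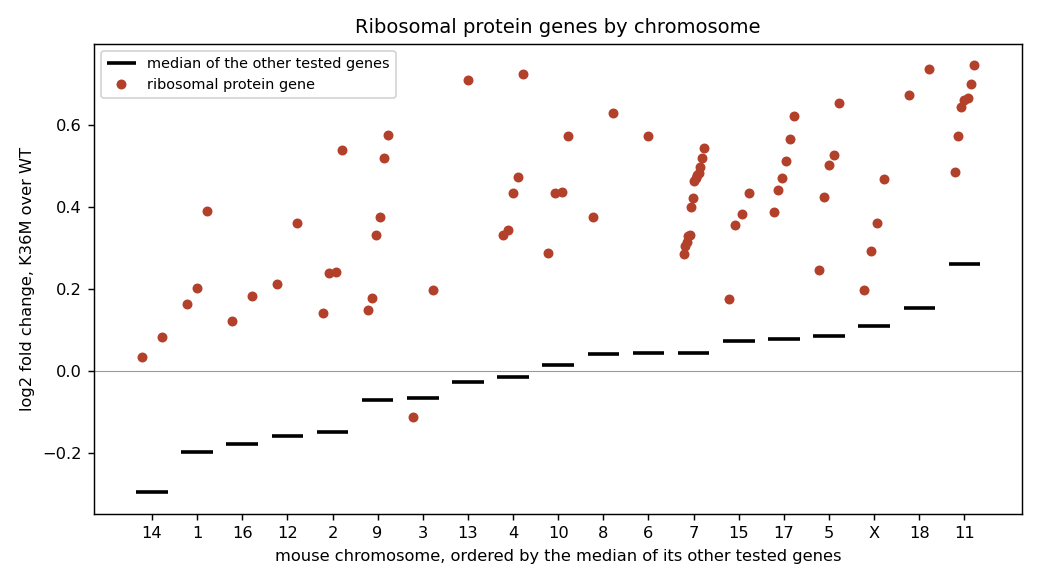
Points are the log2 fold changes, K36M over WT, of the 76 tested ribosomal protein genes on 19 mouse chromosomes, and bars are the median of the other tested genes of that chromosome, in rising order of that median. Points lie above the bar of their chromosome except for Rpl34 on chromosome 3, and points on chromosomes 14 and 16 are lower than those on 18 and 11.

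The genes that make and assemble ribosomes moved mostly the same way, with more exceptions. Across all tested genes 38.5% were called higher and 37.1% lower, and shares are given beside the counts below. Of 14 tested genes of RNA polymerase I, which transcribes ribosomal RNA, and its factors, 9 rose and 3 fell. These are 64.3% and 21.4%, with a median log2 fold change of 0.28. Polr1a, the largest subunit, stood at 152 and 153 CPM in K36M and at 70.4 and 71.6 CPM in WT, 2.14-fold higher (adjusted p = 4.54e-14, edgeR). Polr1b and the activator Ubtf rose 1.45-fold and 1.41-fold, while Twistnb, Taf1b and Ttf1 fell 1.41-fold, 1.33-fold and 1.22-fold. Polr1a thus lay far outside the range of the ribosomal protein genes.

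Of 15 snoRNP and nucleolar proteins 12 rose and 1 fell (80% and 6.67%, median 0.46). Npm1, the nucleolar chaperone nucleophosmin, stood at 1153 and 1255 CPM in K36M and at 747 and 751 CPM in WT, 1.61-fold higher (adjusted p = 3.68e-11, edgeR). Nhp2, a protein of the pseudouridine-guiding snoRNPs, rose 1.73-fold and Fbl, the ribosomal RNA methyltransferase fibrillarin, 1.53-fold. Nop10, a partner of Nhp2 in the same particles, fell 1.31-fold.

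Of 30 large subunit assembly factors 19 rose and 5 fell (63.3% and 16.7%, median 0.25). Of 36 small subunit assembly factors 26 rose and 3 fell (72.2% and 8.33%, median 0.28). Nle1, Bop1 and Ftsj3 of large subunit assembly rose 1.82-fold, 1.65-fold and 1.61-fold, while Lsg1, Mki67ip and Sbds fell 1.13-fold, 1.13-fold and 1.11-fold. Wdr36, Rrp9 and Utp14a of small subunit assembly rose 1.55-fold, 1.55-fold and 1.51-fold, while Nol10, Riok1 and Wbscr22 fell 1.33-fold, 1.18-fold and 1.17-fold. Of 9 ribosomal protein chaperones and import receptors 5 rose and 2 fell (55.6% and 22.2%, median 0.33). Among these the importin genes Ipo7 and Kpnb1 rose 1.71-fold and 1.57-fold and Grwd1, whose yeast counterpart is a chaperone of Rpl3, 1.68-fold, while Ipo9 fell by 0.27 and Bccip by 0.13 on the log2 scale.

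Other mRNAs of the TOP class rose as well, 17 of 19, with 1 lower (median 0.33). These are 89.5% and 5.26%, against 38.5% and 37.1% of all tested genes. Gnb2l1, the gene of the small subunit scaffold RACK1, stood at 1421 and 1442 CPM in K36M and at 898 and 860 CPM in WT, 1.63-fold higher (adjusted p = 8.74e-12, edgeR). Hnrnpa1 and Npm1 rose 1.62-fold and 1.61-fold, and Eif3e, a subunit of initiation factor 3, fell 1.17-fold. Some genes, such as Npm1 and Fau, stand in 2 of these lists.

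Regulators went in both directions, with 7 of 20 tested higher and 5 lower (median 0.01), which is 35% and 25%, against 38.5% and 37.1% of all tested genes. Eif4ebp1, an inhibitor of cap-dependent initiation, rose 1.95-fold, Rps6kb1, which encodes S6 kinase 1, rose 1.56-fold, and Mycl1 2.45-fold at about 1 CPM in K36M. Mlst8, a subunit of the mTOR complexes, fell 1.59-fold, Rps6kb2 1.36-fold and Larp4 1.28-fold. Larp1, Myc and Mtor were named after their values were seen. Larp1, which binds TOP mRNAs, averaged 265 ± 10.3 CPM in K36M and 181 ± 0.342 CPM in WT (SD, n = 2 each), 1.47-fold higher (adjusted p = 3.74e-10, edgeR). Myc rose 1.24-fold, and Mtor was not called (log2 fold change 0.00, adjusted p = 0.988).

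The genes of the mitochondrial ribosome, a separate particle, are the closest group by function. Of 76 tested 30 rose and 13 fell (median 0.08). That is 39.5% higher and 17.1% lower, against 38.5% and 37.1% of all tested genes. Mrpl38, Mrps23 and Mrpl23 rose 1.65-fold, 1.44-fold and 1.44-fold, while Mrps6 fell 2.14-fold, Mrps28 1.57-fold and Mrpl36 1.40-fold. No test of the difference between the cytosolic and mitochondrial groups was run, and the counts stand side by side only.

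Of 5 other motifs searched over the 300 bases of the start windows, 4 were in a larger share of the windows of ribosomal protein genes than of all windows, and TATAAA was in a smaller one. These differences were not tested, and the windows were not limited to genes expressed in these cells. The ETS-type core CCGGAAG, on either strand, was in 26 of 71 windows (36.6%) and in 8.86% of all windows. The motif AAGATGGC of the factor YY1, on either strand, was in 7 of 71 (9.86%) and in 2.75% of all. GGGCGG, the Sp1 core, on either strand, was in 59.2% and in 35.7% of all. The E-box CACGTG, which reads the same on both strands, was in 11.3% and in 7.15% of all, and TATAAA, on the gene's strand, was in 7.04% and in 8.32% of all. CCGGAAG ends in the letters that AAGATGGC begins with, and its other strand begins with pyrimidines, so matches can overlap each other and the tract. A match is not a binding site.

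Across the series, library totals ran from 34022137 to 56041798 expected counts in K36M and from 23343297 to 25322433 in WT. Within a group the tested ribosomal protein genes differed between replicates by a median of 0.06 on the log2 scale in K36M and 0.03 in WT, far below the median rise. The largest differences of single genes, 0.83 in K36M and 0.79 in WT, exceeded the median rise. Rps23 differed by 0.30 in K36M and 0.24 in WT. All 9 mesenchymal markers were present (3 higher and 5 lower in K36M), with summed levels of 23125 to 24839 CPM in K36M and 30926 to 31264 CPM in WT. Summed blood and macrophage markers (4 higher and 0 lower of 5 tested) ran from 40.4 to 41.7 CPM in K36M and from 7.02 to 7.78 CPM in WT, with Hbb-b1 at 0. Epithelial markers (2 higher, 1 lower of 3 tested) ran from 24.3 to 25.8 CPM in K36M and from 11.04 to 12.14 CPM in WT, with Epcam at 0. Endothelial markers (1 higher, 1 lower of 2 tested) ran from 6.71 to 7.25 CPM in K36M and from 27.8 to 29.8 CPM in WT, and neural and glial markers (1 higher, 2 lower of 3 tested) from 26.7 to 27.2 CPM in K36M and from 17.3 to 18.1 CPM in WT. Their part in the ribosomal protein values was not tested.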

How the data were processed

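The submitters' processing notes name Bowtie 1.0.0, RSEM 1.2.12 and the build mm9. Per the file headers, the authors deposited RSEM expected counts, made as input for EBSeq. The authors' deposited table of 594 genes holds log2 values and a linear fold ratio; its log2 values imply 1 scaling factor for each library, and these factors served as an alternative.

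Expected counts were rounded. After filterByExpr and TMM scaling, 13162 genes were compared between K36M and WT by the quasi-likelihood test of edgeR 4.0.16 (R 4.3.3). Their p-values were adjusted over all of them by Benjamini-Hochberg. Each gene keeps 2 residual degrees of freedom, and a median of 15.7 more were borrowed from the spread of all tested genes. The p-values and 95% intervals therefore rest mostly on spread shared across genes. The procedure was tested on simulated data, with a single setting of replicate spread for all genes. Only 50 genes were changed at each fold, evenly up and down, among 12911 tested. Most tested genes of the real data were called, so the simulation does not show how scaling or false calls behave in such a case. The test recovered 28 of 50 genes changed 1.2-fold and 34 of 50 changed 1.5-fold. At 2-fold it recovered 50 of 50 and at 4-fold 49 of 50, and of all 167 calls 6 were false. Alternatives changed the scaling, the filter, the tool (DESeq2 1.42.0, limma 3.58.1), the depth, the replicate block and the libraries used.

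Chromosomes come from RefSeq (GRCm38.p6) and coding lengths, found for 13014 tested genes, from GENCODE M21, both by symbol; mm9 coordinates were not used. Members and lists were chosen with earlier results of these data known. Named members are the 8 highest and 8 lowest log2 fold changes, those not called or not tested, the 4 with the highest CPM and those in role lists; of other lists, up to 3 rises and 3 falls are named. A few genes under this rule are not reported here by name, but they remain in all counts, medians and tests.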

Additional observations from a re-analysis of the deposited data

How the results depend on the processing

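The count of ribosomal protein genes called higher lay between 67 and 75 under every alternative run, against 73, and stayed within 1.5 times of it. Leaving out each library in turn gave a median log2 fold change of 0.41 to 0.44, given as a size only because a lone library was left in a group. The median was 0.47 under upper quartile scaling, 0.48 under total counts, 0.34 under the authors' factors and 0.45 at a mean of at least 5 CPM, against 0.43, and the median of all tested genes moved from 0.00 to 0.04, 0.05, -0.08 and 0.00 in the same settings, so that the difference between the 2 medians stayed at 0.43 in the first 3 and was 0.45 in the fourth. It was 0.34 with no low-count filter. With no low-count filter 1 gene, Rpl34, was called lower (log2 fold change -0.12, adjusted p = 0.0103). Direction changed in 5 of 655 combinations of a gene followed singly and an alternative: Rpl15 (-0.052) and Rps24 (-0.0035) under the authors' factors, and Rpl34 without WT replicate 1 (0.17), without K36M replicate 1 (0.26) and summed with Rpl34-ps1 (0.26). Leaving out each library gave Rpl34 values from -0.57 to 0.26; the lone library left in a group is assumed to vary like the other group. Another 12 combinations lost a call and 9 gained one, some of them in fits that left a lone library in a group. Rps25, named after its values were seen, lost its call under the authors' factors (adjusted p = 0.0840) and with the DESeq2 Wald test (0.0654). With the replicate block 73 genes were called higher and 0 lower, with a median of 0.43. The labels do not say that the numbers pair the libraries, and same-numbered libraries deviated from their group means with r = 0.00 over all tested genes, -0.55 over the tested ribosomal protein genes and -0.30 over these without Rpl34. Thinned to the shallowest library, 73 were called higher and 0 lower. Which rows depth limits was not tested. The authors' factors moved the split of all calls to 33.1% higher and 43.4% lower. The causes of these shifts were not tested.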
